A study of Mus musculus with 8 samples.

Results

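The 9 genes described here, Spi1, Cebpa, Cebpb, Cebpe, Irf8, Irf4, Maf, Batf3 and Zeb2, encode transcription factors of the myeloid lineages. They were listed by name for that role, with no threshold on a measured value and with earlier results of these data known, and are 9 of the 21755 genes named in the count tables. All 9 had a row in each of the 8 tables.

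CD45+ immune cells were sorted from full-thickness wounds in the back skin of male C57BL/6J mice on days 1, 3, 5 and 7 after wounding. The diabetic mice had been given streptozotocin (STZ, a toxin of the insulin-producing beta cells) at 120 mg/kg at 4 weeks of age, with a blood glucose of at least 16.5 mmol/L as the limit for diabetes, and the control mice had wounds of the same kind. Each library was a pool of 5 mice, and each group had 1 library a day. The study asked how the immune cells of the 2 kinds of wound differ as they heal. No group has a second library on the same day, so a single day can be described and not tested, and the spread used in the tests comes from the 4 days.

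After filtering, 35215 of 38959 barcodes were kept as cells, 3273 to 5440 in a library, with a median of 2573 to 8219 unique molecular identifiers (UMIs, counted RNA molecules) per cell. The control library of day 5 stood apart, with 28.5% of its barcodes removed against 1.00 to 10.6% elsewhere and the deepest cells. Ptprc, the gene of the sorted CD45 antigen, had a UMI in 70.5 to 86.1% of the cells of each library. Cells were clustered with the 9 genes left out of the clustering and named from other marker genes, which gave 13769 neutrophil-like, 4830 monocyte-like, 6163 macrophage-like, 2899 dendritic-like, 2425 T cell-like and 568 NK cell-like cells, besides smaller classes of osteoclast-like (380), fibroblast-like (57) and mast cell-like cells (146). A further 3978 cells with a median of 840 UMIs, led by Gm26917 and Malat1, were left unnamed. Levels are given as CPM, the UMIs of a gene summed over the cells of a class in a library and scaled to 1000000 UMIs of those cells. In such sums, fewer expressing cells and fewer molecules per cell cannot be told apart. CPM intervals are exact Poisson intervals at 95%, shares of cells are taken after thinning every cell to 1000 UMIs, and both kinds of interval cover counting error only.

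As background, a small set of transcription factors guides blood progenitors into the myeloid lineages. Spi1 encodes PU.1, required in graded amounts by granulocytes, monocytes, macrophages and dendritic cells. The C/EBP factors act along the granulocyte and monocyte paths, Irf8 favours monocytes and type 1 conventional dendritic cells (cDC1) over granulocytes, Batf3 holds the cDC1 fate, Irf4 serves type 2 dendritic cells (cDC2), Maf is a regulator of macrophage identity and Zeb2 restrains alternative fates in monocytes and cDC2. All 9 also act outside the myeloid lineages or in single steps of maturation, as Irf8 does in NK and B cells and Maf in T cells.

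In the GRCm38 annotation, Spi1 lies at chr2:91082390-91115756, Cebpa at chr7:35119293-35121928, Cebpb at chr2:167688915-167690418, Irf8 at chr8:120736358-120756694, Irf4 at chr13:30749226-30766976 and Batf3 at chr1:191097847-191108945, all on the plus strand. Cebpe at chr14:54710360-54712174, Maf at chr8:115682942-115707794 and Zeb2 at chr2:44983632-45117395 lie on the minus strand. Genes on the other strand overlap Cebpa (Gm45091), Cebpb (Tmem189), Maf (Gm15655) and Zeb2 (Zeb2os, Gm27761, Gm27404 and Gm27645). On the member's own strand, Gm20388 overlaps Irf8 and Mir5129 overlaps Zeb2. Whether the counting used strand is not given in the sources used here, so reads of these partners cannot be told apart from those of the members.

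Promoter sequences of 6 of the 9 members were found in the RefSeq table of GRCm38.p6, and Spi1, Cebpe and Maf had no entry in it. The 250 bases before the start of 4 of them are shown, picked after their values were seen: Cebpb for its level in neutrophil-like cells, and Irf8, Irf4 and Zeb2 for their opposite levels in cDC1-like and cDC2-like cells. Capitals mark matches on either strand to GAGGAA (the core bound by PU.1), TTGCNNAA (a C/EBP site), the interferon response element, TTCNNNGAA (a STAT site) and TGACG (the core of a cAMP response element, written CGTCA on the other strand). For Zeb2, which has 4 starts in the table, the outermost is shown.
Cebpb, chr2:167688665-167688914, plus strand: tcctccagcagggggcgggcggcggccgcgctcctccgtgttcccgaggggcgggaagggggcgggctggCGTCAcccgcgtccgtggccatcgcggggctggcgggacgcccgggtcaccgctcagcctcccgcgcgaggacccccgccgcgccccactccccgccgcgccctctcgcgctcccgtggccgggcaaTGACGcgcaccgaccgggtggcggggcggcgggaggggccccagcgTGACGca
Irf8, chr8:120736108-120736357, plus strand: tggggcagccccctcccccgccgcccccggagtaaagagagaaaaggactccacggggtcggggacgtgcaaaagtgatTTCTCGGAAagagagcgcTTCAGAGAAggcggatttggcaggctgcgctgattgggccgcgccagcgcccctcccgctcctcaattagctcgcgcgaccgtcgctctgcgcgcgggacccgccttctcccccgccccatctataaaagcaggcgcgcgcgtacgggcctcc
Irf4, chr13:30748983-30749232, plus strand: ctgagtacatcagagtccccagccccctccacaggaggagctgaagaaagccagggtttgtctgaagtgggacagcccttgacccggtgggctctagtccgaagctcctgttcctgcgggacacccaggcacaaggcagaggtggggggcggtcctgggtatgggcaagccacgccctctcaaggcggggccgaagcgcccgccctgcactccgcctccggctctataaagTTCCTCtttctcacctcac
Zeb2, chr2:45117443-45117692, minus strand: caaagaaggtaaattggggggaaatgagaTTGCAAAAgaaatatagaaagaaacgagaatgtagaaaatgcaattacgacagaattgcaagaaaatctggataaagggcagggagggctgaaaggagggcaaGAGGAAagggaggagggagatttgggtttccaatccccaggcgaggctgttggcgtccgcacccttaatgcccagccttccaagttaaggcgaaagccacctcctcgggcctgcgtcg
The Cebpb window held 3 matches to the core of the cAMP response element, at -180, -53 and -7 from the start, and the Irf8 window 2 matches to the STAT site, at -171 and -153. Irf4 had 1 match to the PU.1 core, at -19, and Zeb2 had 1 match each to the PU.1 core and the C/EBP site, at -118 and -221. Of 32851 promoter windows of this length, 23.3% held the PU.1 core, 9.56% the C/EBP site, 2.98% the interferon response element, 7.02% the STAT site and 17.8% the core of the cAMP response element. The matches describe the letters of these windows, and no binding was measured.

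Spi1, the factor shared by all myeloid lineages, was detected at similar levels in each of the 4 large myeloid classes. Its median over the 8 libraries was 358 CPM in neutrophil-like cells (221.9 to 471), 383 CPM in monocyte-like cells (276 to 424), 376 CPM in macrophage-like cells (233 to 400.0) and 340.0 CPM in dendritic-like cells (262 to 370.3). The ranges overlapped throughout, and monocytes, macrophages and dendritic cells together lay above neutrophils in 5 libraries and below them in 3, with a median log2 ratio of 0.03 ± 0.24 (SD, n = 8 libraries). Osteoclasts are multinucleated relatives of macrophages in bone. The osteoclast-like cells of these wounds, named only from marker genes such as Ctsk and Acp5, had 486 to 581 CPM of Spi1. This range is from the 4 libraries with at least 20 such cells, and lay above the 4 myeloid classes of the same libraries. T cell-like cells, which should lack PU.1, had 44.2 to 183 CPM. Whether this came from free RNA, doublets or misnamed cells was not tested. After thinning, a median of 30.4% of macrophage-like cells and 5.59% of T cell-like cells had a Spi1 UMI.

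**Figure D1:**
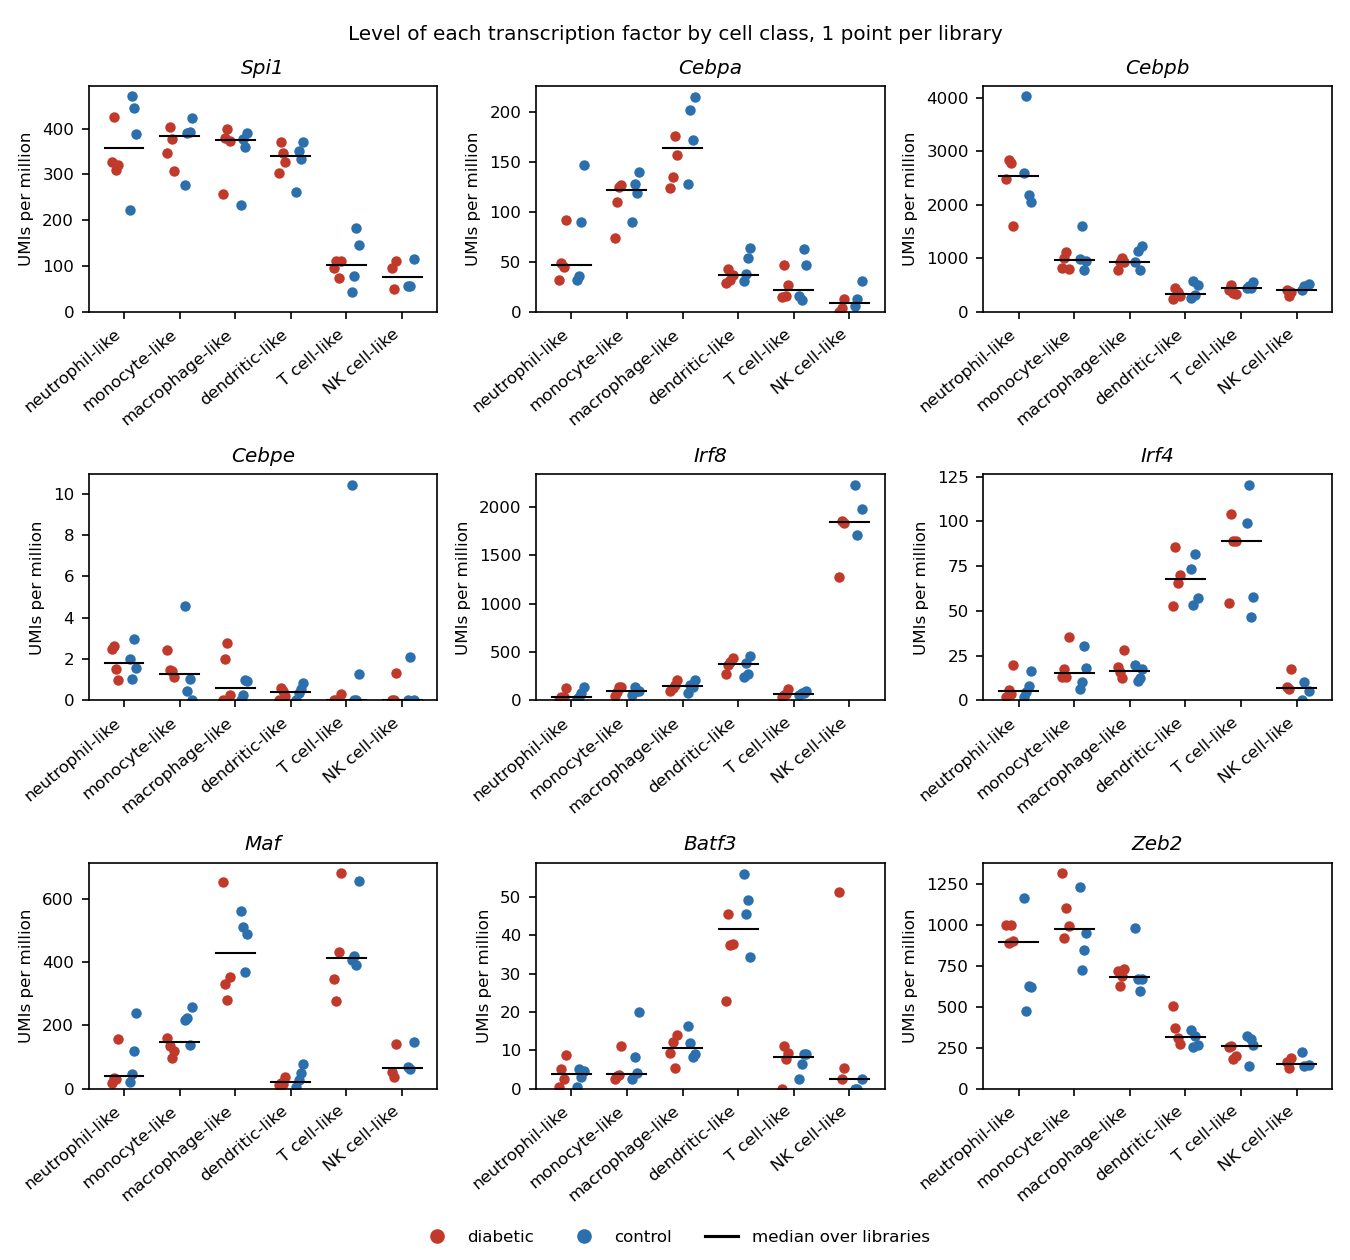
Level of each of the 9 members (CPM, vertical axis, 1 panel per gene with its own scale) in 6 cell classes, with 1 point per library holding at least 20 cells of the class, red for diabetic and blue for control wounds, and a black line at the median. Spi1 sits at 221.9 to 471 CPM across the 4 large myeloid classes, Cebpb stands highest in neutrophil-like cells, Maf in macrophage-like and T cell-like cells, and Irf8 in NK cell-like cells.

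Cebpb and Cebpa, both C/EBP genes, were highest in different myeloid classes. Cebpb, a factor of emergency granulopoiesis and of inflammatory gene expression, was highest in neutrophil-like cells. It measured 2477, 2831, 2774 and 1601 CPM there on days 1, 3, 5 and 7 in diabetic wounds and 2586, 4030, 2187 and 2062 CPM in control wounds. Macrophage-like cells had 776 to 1226 CPM, monocyte-like cells 786 to 1603 CPM and dendritic-like cells 243 to 571 CPM. In every library neutrophils lay above the 3 mononuclear classes in sum, with a median log2 ratio of mononuclear phagocytes over neutrophils of -1.65 ± 0.33 (SD, n = 8 libraries). T cell-like cells held 326 to 553 CPM of Cebpb, which overlapped the range of the dendritic-like cells. Within a library T cell-like cells were above dendritic-like cells in 6 of 8.

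Cebpa, which opens the path from progenitors to granulocytes and monocytes, was highest among the large classes in macrophage-like cells. The levels there were 124, 135, 176.5 and 157 CPM in diabetic wounds and 128, 202, 172 and 215.5 CPM in control wounds. Neutrophil-like cells had 31.7 to 147 CPM, dendritic-like cells 29.2 to 63.7 CPM and T cell-like cells 12.0 to 62.6 CPM. Macrophage-like cells exceeded neutrophil-like cells in all 8 libraries, and dendritic-like cells lay below macrophage-like cells in all 8, with a median log2 ratio of -2.07 ± 0.31 (SD). Mast cell-like cells, another granulated myeloid type, had 52.4 to 692 CPM in 4 libraries.

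Cebpe, needed for the late granules of neutrophils, was close to the limit of detection. Only 78 UMIs were counted in 13769 neutrophil-like cells, or 0.98 to 2.97 CPM in a library. The highest level among neutrophil sub-clusters was in immature granule-rich cells, marked by Ngp, Camp and Ltf, with 3.51 CPM from 11 UMIs (95% interval 1.75 to 6.27), against 1.72 CPM in neutrophil-like cells of no named sub-cluster (1.31 to 2.23). The difference rests on few UMIs and was not tested. Summed over libraries, the level was 1.89 CPM in neutrophil-like cells, 2.27 CPM in monocyte-like cells (90 UMIs), 0.929 CPM in macrophage-like cells (49 UMIs) and 0.417 CPM in dendritic-like cells (9 UMIs). Within a library neutrophil-like cells lay above dendritic-like cells in 8 of 8, above macrophage-like cells in 7 of 8 and above monocyte-like cells in 6 of 8.

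Of the whole classes, NK cell-like cells had the highest level of Irf8. These cells, in which Irf8 is known to act, held 1276 to 2228 CPM in the 6 libraries with at least 20 such cells. Among the myeloid classes dendritic-like cells were highest, with 275, 368, 395 and 441.5 CPM on days 1, 3, 5 and 7 in diabetic wounds and 238, 390.3, 273.5 and 464 CPM in control wounds. Macrophage-like cells followed with 75.4 to 214 CPM and monocyte-like cells with 43.9 to 138 CPM. Neutrophil-like cells had 5.96 to 142.5 CPM and T cell-like cells 32.7 to 113.5 CPM, and T cell-like cells were the higher of these 2 classes in 5 of 8 libraries. Neutrophil-like cells were the higher on diabetic day 7 and control days 5 and 7. In those libraries a sub-cluster led by macrophage genes, described below, held 35.7, 42.8 and 83.0% of the neutrophil-like cells. Its part in these levels was not tested. The order dendritic-like over macrophage-like held in all 8 libraries, with a median log2 ratio of 1.29 ± 0.24 (SD), as did mononuclear phagocytes over neutrophils, at 2.37 ± 1.03. The latter ratio ran from 3.63 on diabetic day 1 to 0.74 on control day 7.

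Batf3 and Irf4, the other factors of the dendritic lineage, were also highest among the myeloid classes in dendritic-like cells. Batf3 measured 22.8 to 56.1 CPM there and 5.52 to 16.4 CPM in macrophage-like cells, without overlap, and its median log2 ratio of dendritic-like over macrophage-like cells was 1.91 ± 0.51 (SD, higher in 8 of 8 libraries). Irf4 measured 52.8 to 85.4 CPM in dendritic-like cells and 10.6 to 28.0 CPM in macrophage-like cells, with a median log2 ratio of 2.12 ± 0.50 (higher in 8 of 8). T cell-like cells, which use Irf4 during activation, had 46.7 to 120 CPM of it and were above the dendritic-like cells in 7 of 8 libraries. Their Batf3 was at 0 to 11.15 CPM, below the dendritic-like cells in 8 of 8.

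Within the dendritic-like cells the levels of Irf8, Batf3, Irf4 and Zeb2 differed between the sub-clusters. The cDC1-like cells, 293 cells marked by Xcr1, Clec9a and related genes, had 844 CPM of Irf8 over all libraries (95% interval 810 to 880), 58.2 CPM of Batf3, 7.78 CPM of Irf4 and 90.8 CPM of Zeb2. The cDC2-like cells, 943 cells marked by Cd209a and Mgl2, had 131 CPM of Irf8, 14.9 CPM of Batf3, 65.5 CPM of Irf4 and 482 CPM of Zeb2. The 2 sub-clusters thus stood on opposite sides for Irf8 and Batf3 on the one hand and Irf4 and Zeb2 on the other. The markers that named them include known targets of Irf8 and Batf3 (Xcr1, Clec9a, Cadm1 and Naaa) and of Irf4 (Mgl2). The naming was therefore not independent of these factors, and the contrast is a description and not a test. Per library, cDC1-like Irf8 lay at 763 to 1073 CPM in 6 libraries and cDC2-like Irf8 at 62.0 to 200.3 CPM in 7, with no overlap, and Irf4 lay at 0 to 15.9 CPM against 52.8 to 81.2 CPM. Zeb2 was at 61.0 to 158 CPM in cDC1-like and 340 to 729 CPM in cDC2-like cells.

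Migratory dendritic-like cells, 635 cells marked by Ccr7 and Fscn1, joined the 2 patterns, with 758 CPM of Irf8, 123 CPM of Irf4 and the highest Batf3 of the named dendritic sub-clusters, 118 CPM (89 to 162 CPM over 8 libraries). The 41 plasmacytoid dendritic-like cells, interferon producers that depend on Irf8, had 2671 CPM of it from 696 UMIs, 338 CPM of Zeb2 and 1 UMI of Batf3. The 82 Langerhans-like cells, the dendritic cells of the epidermis, had 246 CPM of Irf8, 83.6 CPM of Irf4 and 133 CPM of Zeb2. Plasmacytoid dendritic-like cells numbered under 20 in every library, and Langerhans-like cells reached 20 in 1 library, so neither was compared between the groups.

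**Figure D2:**
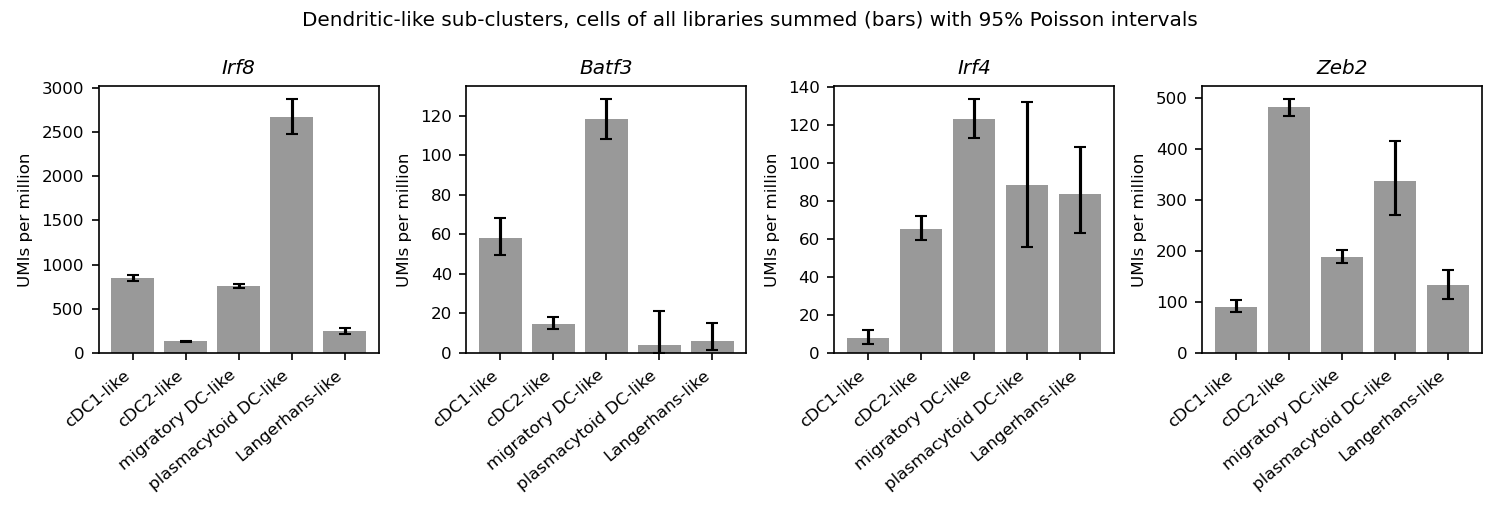
Level of Irf8, Batf3, Irf4 and Zeb2 (CPM, vertical axis from 0) in 5 named sub-clusters of the dendritic-like cells, summed over all 8 libraries, with bars for the level and whiskers for the exact 95% Poisson interval. Irf8 reaches 844 CPM in cDC1-like and 131 CPM in cDC2-like cells, while Zeb2 stands at 90.8 and 482 CPM and Irf4 at 7.78 and 65.5 CPM in the same sub-clusters.

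Maf, the macrophage factor, was highest among the myeloid classes in macrophage-like cells. It measured 654, 331, 280.0 and 354 CPM there in diabetic wounds on days 1, 3, 5 and 7 and 564, 513, 370.5 and 491 CPM in control wounds. Monocyte-like cells had 96.5 to 260.0 CPM, and dendritic-like cells had 4.01 to 79.4 CPM and lay below macrophage-like cells in all 8 libraries, with a median log2 ratio of -4.19 ± 1.53 (SD). Resident-like macrophages (307 cells) held the highest level of the named macrophage sub-clusters, 859 CPM, against 256 CPM in lipid-handling macrophages (814 cells). Most macrophage-like cells, 5042, were in no named sub-cluster and had 433 CPM. Control day 5 gave 556 of the lipid-handling and 110 of the resident-like cells, and diabetic day 3 gave 118 of the latter. Within control day 5 the levels were 944 CPM in resident-like and 258 CPM in lipid-handling macrophages. T cell-like cells, in which Maf is a known regulator of cytokine genes, had 276 to 681 CPM, a range that spans that of the macrophages.

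Zeb2, which holds monocytes and their descendants to their fate, was highest in monocyte-like cells, at a median of 974 CPM (725 to 1322 CPM). Neutrophil-like cells had a median of 896 CPM (473 to 1166 CPM), macrophage-like cells 681 CPM (598.5 to 980.1 CPM) and dendritic-like cells 317 CPM (258 to 508 CPM). The ranges of monocyte-like and neutrophil-like cells overlapped across libraries, but within a library monocyte-like cells were higher in 8 of 8. Dendritic-like cells lay below macrophage-like cells in all 8 libraries, with a median log2 ratio of -1.25 ± 0.36 (SD). T cell-like cells had 136 to 320.1 CPM.

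Over the days of healing, 3 of the 9 members changed in all cells of a library in sum, by the quasi-likelihood test of edgeR with a line over days shared by both groups, where 10.3% of 12905 genes passed the same test. Irf8 rose. It measured 57.1, 124.5, 217 and 282.5 CPM on days 1, 3, 5 and 7 in diabetic wounds and 61.2, 185, 122 and 244 CPM in control wounds, a slope of 0.25 log2 per day (SE 0.06, adjusted p = 0.0397). The day 7 libraries were the highest of each group and the day 1 libraries the lowest. Zeb2 fell, with 1102, 742.5, 741 and 577 CPM on these days in diabetic wounds and 1141, 534, 552 and 585 CPM in control wounds, a slope of -0.22 log2 per day (SE 0.05, adjusted p = 0.0376). In control wounds the fall lay between days 1 and 3. Cebpe fell as well, with a slope of -0.38 log2 per day (SE 0.09, adjusted p = 0.0401), at 2.10, 1.72, 1.16 and 0.465 CPM in diabetic and 3.29, 0.788, 0.883 and 1.00 CPM in control wounds, from 10 to 62 UMIs each, and again the control libraries fell between days 1 and 3. Of the 9 members 0 passed in edgeR when any 1 of the libraries of day 1 or day 7 was left out, where 0.00752 to 1.73% of genes passed. Without the diabetic library of day 3, 1 passed, Zeb2, beside 10.1% of genes, and without the control library of day 5 Cebpe did not pass, while the slopes kept their sign, at 0.19 to 0.27 for Irf8, -0.27 to -0.16 for Zeb2 and -0.49 to -0.27 for Cebpe.

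**Figure D3:**
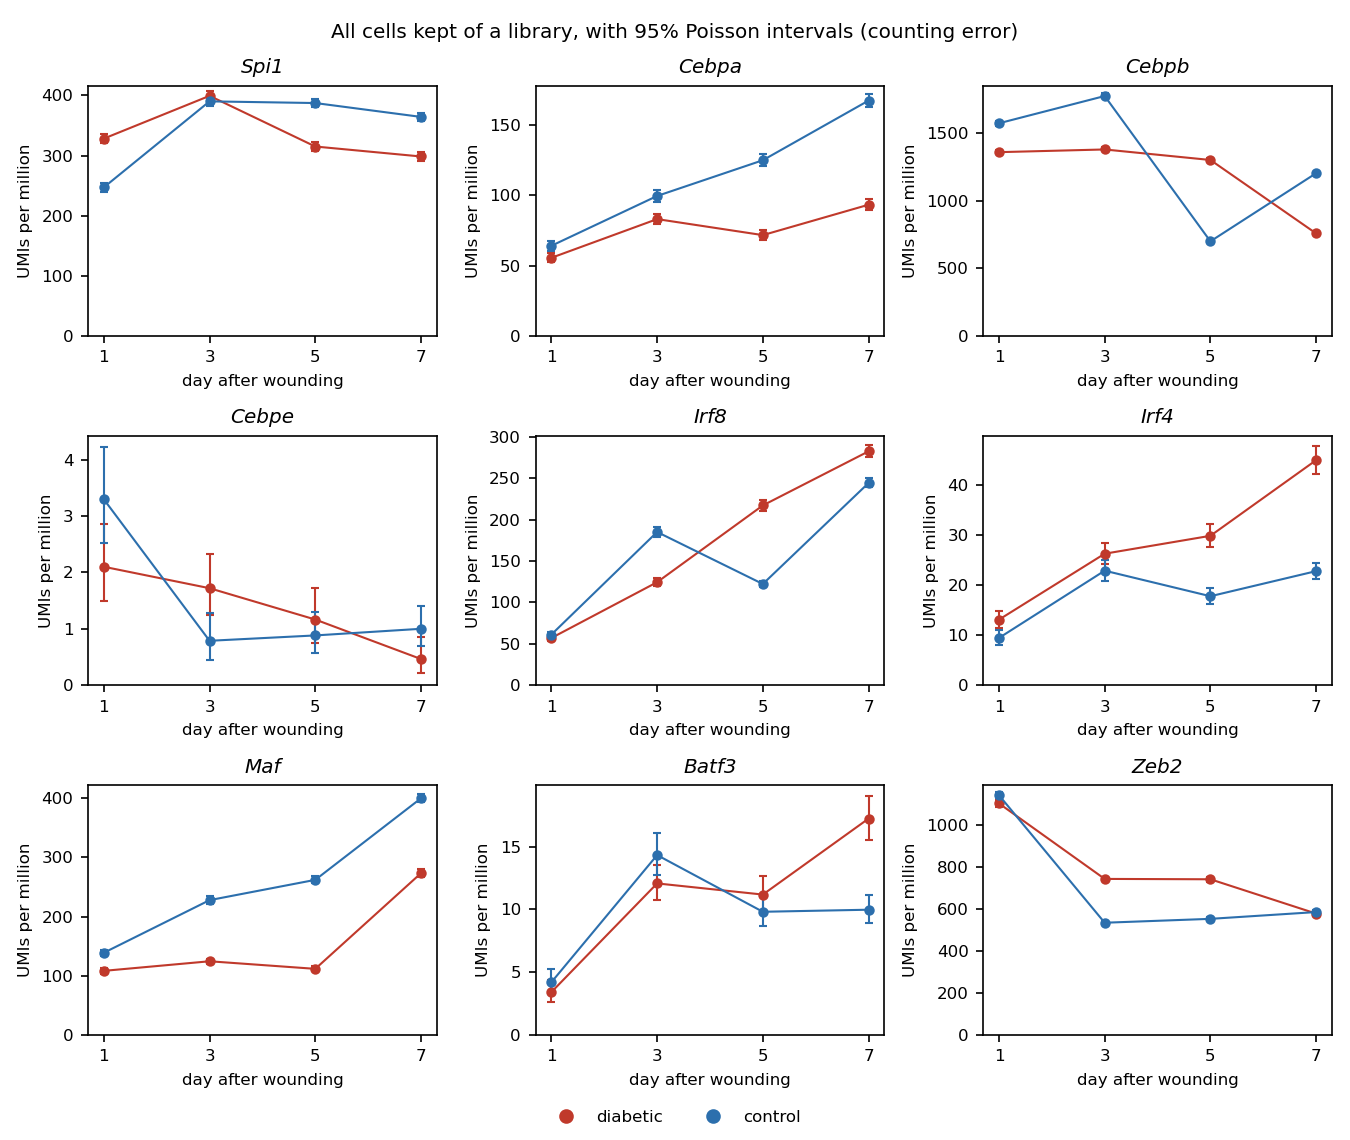
Level of each of the 9 members over all cells of a library (CPM, vertical axis) against the day after wounding (horizontal axis), with 1 point per library, lines joining the libraries of a group, red for diabetic and blue for control wounds, and exact 95% Poisson intervals as bars. Irf8 climbs from 57.1 and 61.2 CPM to 282.5 and 244 CPM, Zeb2 falls from 1102 and 1141 CPM to 577 and 585 CPM, and the control line of Maf lies above the diabetic line on each day.

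The cell makeup moved with these levels. Neutrophil-like cells made up 51.1 and 59.8% of cells on day 1 in diabetic and control wounds and 20.9 and 22.8% on day 7, and dendritic-like cells went from 4.50 and 2.56% to 16.2 and 6.68%. Monocyte-like cells, the named class with the highest Zeb2, went from 29.7 and 26.5% to 5.20 and 1.05%. NK cell-like cells, the class with the highest Irf8, went from 0.356 and 0.975% to 3.56 and 3.18%, and held 1377 of 6078 and 1529 of 8051 Irf8 UMIs on day 7. The part of these shares in the levels of all cells was not tested. Within monocyte-like, macrophage-like and dendritic-like cells, 0 of the 8 members tested passed the slope test in edgeR, against 0.713, 0.244 and 0.228% of all genes. At an unadjusted p under 0.05 there were 4, 2 and 3 members in these classes, beside 1271 of 9683, 897 of 9848 and 1089 of 9222 genes. DESeq2, which called 2.87, 0.934 and 1.72% of genes, called 1 member in each, Batf3 in monocyte-like, Irf8 in macrophage-like and Maf in dendritic-like cells. Cebpe was below the filter on low counts in all of them. In all cells DESeq2 called 6 members, Cebpb, Cebpe, Irf4, Irf8, Maf and Zeb2, beside 21.5% of genes.

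In macrophage-like cells Irf8 measured 92.1, 132, 160.0 and 211.5 CPM on days 1, 3, 5 and 7 in diabetic wounds and 75.4, 162, 134 and 214 CPM in control wounds. The day 7 values were the highest of each group, and the slope was 0.19 log2 per day (SE 0.04) with an adjusted p of 0.0904 in edgeR and 0.0256 in DESeq2. Monocyte-like cells had an Irf8 slope of 0.20 log2 per day (SE 0.07, adjusted p = 0.218), and dendritic-like cells one of 0.10 (SE 0.04, adjusted p = 0.298). Cluster membership within the macrophage-like cells was uneven, as cluster 3, led by Igf1 and Gdf15, held 815 and 2083 of them on day 7 in diabetic and control wounds, and cluster 8, led by Gpnmb and Ms4a7, held 969 on day 5 in control wounds.

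In neutrophil-like cells 7 of the 9 members passed the slope test of edgeR, and 45.0% of the 9587 genes tested in these cells passed it too. Irf8 measured 5.96, 36.6, 39.0 and 124 CPM on days 1, 3, 5 and 7 in diabetic wounds and 9.54, 35.9, 78.3 and 142.5 CPM in control wounds, and rose with a slope of 0.48 log2 per day (SE 0.06, adjusted p = 0.000244). Maf rose with a slope of 0.38 (SE 0.05, adjusted p = 0.000421), from 17.7 and 20.9 CPM on day 1 to 158.5 and 241 CPM on day 7. Irf4 rose by 0.35 log2 per day (SE 0.07, adjusted p = 0.00261), and Cebpa by 0.15 (SE 0.05, adjusted p = 0.0170). Cebpb fell by 0.25 log2 per day (SE 0.07, adjusted p = 0.00934), Zeb2 fell by 0.24 (SE 0.07, adjusted p = 0.0129) and Cebpe fell by 0.26 (SE 0.10, adjusted p = 0.0465). Spi1 had a slope of -0.11 (SE 0.05, adjusted p = 0.0648) and Batf3 one of 0.26 (SE 0.14, adjusted p = 0.145). DESeq2 also called 7 members, beside 47.0% of genes, with Spi1 (adjusted p = 0.0137) in the place of Cebpe (adjusted p = 0.0557). In edgeR the count of members was 3 without the diabetic library of day 7, beside 23.9% of genes, 4 without the control library of day 7, beside 26.2%, and 1, Irf8, without both (slope 0.53, adjusted p = 0.0362), beside 1.37%.

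Markers of macrophages rose in the same cells. The 11 macrophage markers, C1qa, C1qb, C1qc, Mrc1 and Apoe among them, summed to 351 and 576 CPM in neutrophil-like cells on day 1 in diabetic and control wounds and to 9816 and 11439 CPM on day 7, against 17242 to 25454 CPM in macrophage-like cells. At least 10 of the 11 had UMIs in every library, and Folr2 was at 0 in the diabetic libraries of days 1 and 5. The 10 neutrophil markers summed to 54816 to 67187 CPM on day 1 and to 17045 to 17530 CPM on day 7. A neutrophil sub-cluster led by macrophage genes held 83.0% of the neutrophil-like cells of control day 7, 42.8% of control day 5 and 35.7% of diabetic day 7, and at most 4.59% elsewhere.

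Per 1000 UMIs of the macrophage markers, neutrophil-like cells held 16.1 UMIs of Maf on diabetic day 7 and 21.1 on control day 7, and macrophage-like cells held 18.0 and 23.7. Irf8 stood at 12.6 and 12.5 UMIs on these days in neutrophil-like cells and at 10.8 and 10.3 in macrophage-like cells. On day 1 the values of Irf8 were 17.0 and 16.6 against 4.73 and 4.37. In neutrophil-like cells with 0 macrophage marker UMIs, Irf8 was at 5.65, 31.4 and 31.2 CPM on days 1, 3 and 5 in diabetic wounds and at 6.71 and 21.9 CPM on days 1 and 3 in control wounds, from 6 to 24 UMIs each, with too few such cells on later days. Cebpb in these cells was at 2546, 3313 and 2838 CPM and at 2654 and 4277 CPM. When each cell was named singly from its markers, 2 of the 7 members tested passed in neutrophil-like cells, beside 8.67% of genes, Irf8 (slope 0.43, adjusted p = 0.00188) and Maf (slope 0.22, adjusted p = 0.0461). No slope was tested in the cells with 0 macrophage marker UMIs, and the part of macrophage RNA in these calls was not tested.

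**Figure D4:**
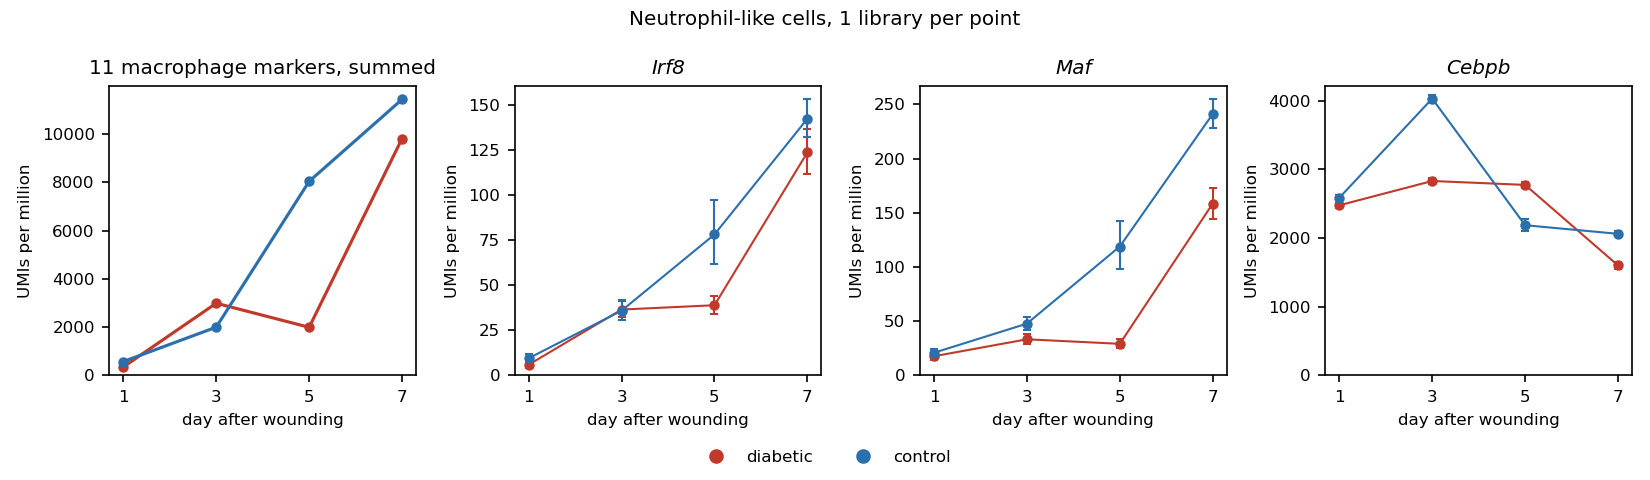
Neutrophil-like cells by day after wounding (horizontal axis), with the summed level of the 11 macrophage markers and the levels of Irf8, Maf and Cebpb (CPM, vertical axes, 1 panel each), red for diabetic and blue for control wounds. The markers rise from 351 and 576 CPM on day 1 to 9816 and 11439 CPM on day 7, Irf8 and Maf are highest on day 7, and Cebpb peaks at 4030 CPM in control wounds on day 3.

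Between diabetic and control wounds, 0 members passed the test in any class by edgeR with day as a block, and 0% of all genes passed it in all cells, neutrophil-like and monocyte-like cells, 0.0102% in macrophage-like and 0.0217% in dendritic-like cells. At an unadjusted p under 0.05 there were 3 members in all cells, 1 in neutrophil-like, 2 in monocyte-like, 1 in macrophage-like and 1 in dendritic-like cells. The same limit was passed by 1456 of 12905, 1018 of 9587, 788 of 9683, 773 of 9848 and 579 of 9222 genes. DESeq2 called 0.651% of genes in all cells and 0.269% in monocyte-like cells, with Maf the 1 member among them in both, and 0.522, 0.264 and 0.152% in neutrophil-like, macrophage-like and dendritic-like cells, with 0 members. The slopes of 0 members differed between the groups in edgeR, where 0.0102% of genes passed in macrophage-like cells and 0% in the other classes, and 0 members had an unadjusted p under 0.05 or were called by DESeq2.

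Maf stood lower in diabetic wounds on 4 of 4 days over all cells. It measured 108, 124, 112 and 273 CPM in diabetic wounds on days 1, 3, 5 and 7 and 139, 228, 262 and 400 CPM in control wounds, a log2 difference of -0.70 (SE 0.14) with an adjusted p of 0.440 in edgeR and 0.0165 in DESeq2. Macrophage-like cells, the myeloid class with the highest Maf level, made up 1.19, 10.4, 4.49 and 26.9% of cells in diabetic and 1.66, 10.1, 44.6 and 50.6% in control wounds. On day 1 monocyte-like cells held more of the Maf UMIs than macrophage-like cells, 1522 against 142 in diabetic and 2057 against 172 in control wounds, as they did on day 5 in diabetic wounds (545 against 406). T cell-like cells of diabetic wounds held more than either on day 5, 1009, and held 2148 on day 7 beside 2555 in macrophage-like cells. Within monocyte-like cells Maf was also lower on 4 of 4 days, with 160, 134, 96.5 and 118 CPM against 217, 223, 138.5 and 260.0 CPM, a log2 difference of -0.66 (SE 0.14, adjusted p = 0.366 in edgeR and 0.0162 in DESeq2). Without the control library of day 5, which stood apart, the log2 difference of Maf was -0.59 in all cells (adjusted p = 0.538) and -0.71 in monocyte-like cells (adjusted p = 0.391). The macrophage markers in monocyte-like cells summed to 3232, 10069, 5891 and 7674 CPM in diabetic and to 4722, 7373, 11364 and 9943 CPM in control wounds, lower in diabetic wounds on 3 of 4 days and higher on day 3, when Maf was lower. Their part in the difference was not tested.

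In macrophage-like cells Maf was lower in diabetic wounds on 3 of 4 days, with a log2 difference of -0.34 (SE 0.15, adjusted p = 0.604), and the diabetic library of day 1, with 57 such cells, was the exception. Dendritic-like cells, also lower on 3 of 4 days and higher on day 1 (10.7 against 4.01 CPM), had a difference of -0.95 (SE 0.30, adjusted p = 0.675). Neutrophil-like cells, lower on 4 of 4 days, had one of -0.70 (SE 0.21, adjusted p = 0.367). The macrophage markers in dendritic-like cells summed to 405, 2045, 1111 and 3634 CPM in diabetic and 474, 1492, 4994 and 5345 CPM in control wounds. In neutrophil-like cells the gap in Maf was widest on day 5, at 29.2 against 119 CPM, when the markers summed to 1996 and 8042 CPM and the sub-cluster led by macrophage genes held 1.57 and 42.8% of these cells. The part of macrophage RNA in these differences was not tested. None of them passed in edgeR with the filter on low counts. Without it Maf passed in dendritic-like cells (log2 difference -0.94, adjusted p = 0.00788) and in monocyte-like cells (-0.64, adjusted p = 0.00538). The share of all genes passing without the filter is not given here, so these calls are not compared with it.

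Irf4 and Cebpa also lay on one side on each day over all cells. Irf4 measured 13.1, 26.3, 29.9 and 45.0 CPM in diabetic wounds and 9.46, 22.9, 17.8 and 22.8 CPM in control wounds, a log2 difference of 0.66 (SE 0.17, adjusted p = 0.440). Cebpa measured 55.5, 83.1, 71.6 and 93.3 CPM against 64.0, 99.5, 125 and 167.5 CPM, a difference of -0.47 (SE 0.15, adjusted p = 0.440). The Irf4 difference was 0.05 (SE 0.20) within dendritic-like, 0.45 (SE 0.36) within monocyte-like, 0.45 (SE 0.24) within macrophage-like and 0.13 (SE 0.31) within neutrophil-like cells. The Cebpa difference was -0.40 (SE 0.21) within dendritic-like, -0.12 (SE 0.12) within monocyte-like, -0.29 (SE 0.15) within macrophage-like and -0.17 (SE 0.20) within neutrophil-like cells. T cell-like cells had 54.5, 104, 89.0 and 88.8 CPM of Irf4 on these days in diabetic and 98.9, 120, 46.7 and 57.9 CPM in control wounds, higher in diabetic wounds on days 5 and 7. In diabetic and control wounds they made up 11.5 and 5.10% of cells on day 5 and 18.1 and 10.5% on day 7, and dendritic-like cells 13.0 and 5.96% and 16.2 and 6.68%. The part of these shares in the Irf4 difference was not tested, nor that of the macrophage-like share given above in the Cebpa difference. Zeb2 was higher in diabetic monocyte-like cells on 4 of 4 days, with a difference of 0.26 (SE 0.11, adjusted p = 0.606), and higher in diabetic neutrophil-like cells on 3 of 4 days, with one of 0.62 (SE 0.29, adjusted p = 0.474). Without the neutrophil sub-cluster led by macrophage genes, Zeb2 was at 999, 899, 1009 and 1032 CPM in diabetic and 1166, 471, 568 and 645 CPM in control wounds, again higher in diabetic wounds on 3 of 4 days. Batf3 in monocyte-like cells lay lower in diabetic wounds on 4 of 4 days, with a difference of -0.61 (SE 0.37, adjusted p = 0.697). None of these passed in edgeR, and DESeq2 called none of them, giving no adjusted p for Batf3 in monocyte-like cells or for Irf4 in monocyte-like and macrophage-like cells.

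Among 42 other transcription factors of myeloid cells, listed by name, all 42 were tested over all cells, where 2 rose and 4 fell over the days, beside 10.3% of all genes (430 up and 896 down of 12905). Pparg, a regulator of lipid handling, rose by 0.23 log2 per day (SE 0.04, adjusted p = 0.0248) and its partner Rxra by 0.13 (SE 0.03, adjusted p = 0.0368). Irf7, the interferon-induced relative of Irf8, fell by 0.29 log2 per day (SE 0.05, adjusted p = 0.0248), and Ets2, Ddit3 and Prdm1 fell by 0.28, 0.21 and 0.15. The median slope of the list was -0.04, against 0.02 for all genes. In neutrophil-like cells 8 rose and 19 fell of 40 tested, beside 45.0% of all genes (2271 up and 2047 down of 9587), with Spic (0.64 log2 per day) and Klf4 (0.42), both factors of macrophages or monocytes, among the largest rises, and Ddit3, Gfi1, a repressor in granulocytes, and Id1 showing the largest falls (-0.31, -0.30 and -0.29). The median slope of that list was -0.11, against 0.01 for all genes. In monocyte-like, macrophage-like and dendritic-like cells 0 of them passed over the days in edgeR, with 8 of 38, 8 of 37 and 9 of 40 at an unadjusted p under 0.05, beside 1271 of 9683, 897 of 9848 and 1089 of 9222 genes. Between the groups 0 passed in any class in edgeR, with 10 of 42 in all cells, 9 of 40 in neutrophil-like, 6 of 38 in monocyte-like, 2 of 37 in macrophage-like and 3 of 40 in dendritic-like cells at an unadjusted p under 0.05, beside the 1456 of 12905, 1018 of 9587, 788 of 9683, 773 of 9848 and 579 of 9222 genes given above.

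Among 28 known targets of the members, which also serve as cell markers, 0 rose and 12 fell over the days in all cells, of 27 tested, beside the 430 up and 896 down of 12905 genes. The largest falls were in genes of neutrophil granules, Ngp (-1.26 log2 per day), Prtn3 (-0.79), Camp (-0.67), Lcn2 (-0.61) and Mmp8 (-0.55), of which Ngp, Camp, Lcn2 and Mmp8 are targets of Cebpe. The median slope of the targets was -0.13, against 0.02 for all genes. In neutrophil-like cells 7 rose and 11 fell of 26, beside the 2271 up and 2047 down of 9587 genes, with Cadm1 (0.85), C1qa (0.68), C1qc (0.63) and C1qb (0.58) at the top and Ngp (-1.18) and Camp (-0.57) at the bottom. In monocyte-like cells 1 of 22 passed, Ngp, which fell by 1.20 log2 per day (SE 0.21, adjusted p = 0.0315). Between the groups 0 targets passed in any class in edgeR. At an unadjusted p under 0.05 there were 7 of 27 in all cells, 9 of 26 in neutrophil-like, 7 of 22 in monocyte-like, 6 of 22 in macrophage-like and 5 of 22 in dendritic-like cells, beside the same counts over all genes.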

How the data were processed

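The authors trimmed reads with fastp (0.20.1 in the submitters' processing notes), called barcodes through UMI-tools and aligned to GRCm38 by STAR (the notes list mm9), on a platform named BD Rhapsody in the methods and 10X Genomics in the record. The deposited values are UMI counts, whole numbers without normalization. Barcodes had been renumbered, so barcodes shared between libraries could not be counted.

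Cells were barcodes of over 200 genes whose mitochondrial share was under 20%, and mitochondrial genes were left out. Cells were clustered in scanpy 1.11.5 (2000 variable genes without the members, 10 principal components, 30 neighbours, leidenalg 0.10.2 at resolution 0.8) and named from marker genes. Scrublet called 105 cells (0.298%), with 1 to 45 in a library. Whether it missed doublets was not tested, and no cells were removed as doublets. Thinning left out 3677 cells (10.4%) below 1000 UMIs.

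UMIs were summed per library and class (at least 20 cells) and compared in edgeR 4.0.16 (R 4.3.3, quasi-likelihood F test, TMM, filterByExpr, Benjamini-Hochberg over all genes, threshold 0.05), with day as a block for the group effect and as a number for slopes. The scripts were tested on simulated data. DESeq2 1.42.0 was the alternative tool. Comparisons between classes are descriptions. Libraries are pools of 5 mice, and p-values measure the spread between libraries.

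Named are all members, the up to 5 list genes with the largest rise and fall among those past the threshold, and the 3 genes most like each member. Of the list genes this rule names, 1 is not reported here. Members and lists were chosen with earlier results of these data known. Precision follows from 19236522 to 33842509 UMIs per library.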

Additional observations from a re-analysis of the deposited data

How the results depend on the processing

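Day as a block pairs the groups by day, and without it the group effect was again 0 members in each class. Beyond this pairing by day, no paired analysis was possible because the labels give no replicate numbers. Leaving out one library at a time gave 0 to 4 members with a slope in all cells (main 3), 3 to 8 in neutrophil-like cells (main 7), and 0 to 1 in monocyte-like, macrophage-like and dendritic-like cells (main 0 each), and the group effect stayed at 0 in each class. DESeq2 gave 6 slopes in all cells (21.5% of genes, against 10.3% in edgeR), 7 in neutrophil-like cells with Spi1 in the place of Cebpe, 1 in monocyte-like, 1 in macrophage-like and 1 in dendritic-like cells, and 1 group effect each in all cells and monocyte-like cells. Without a filter on low counts there were 3 slopes in monocyte-like, 1 in macrophage-like and 1 in dendritic-like cells, and 1 group effect each in monocyte-like and dendritic-like cells, Maf in both. Cells named singly gave 2 slopes in neutrophil-like and 1 in monocyte-like cells. Leiden resolution 1.6 gave 1 each in macrophage-like and dendritic-like cells, and clustering with the members gave 1 in dendritic-like cells. No share of all genes is given here beside the counts for single libraries left out, no filter, other namings or other clusterings. Those counts are therefore not compared with all genes. Chosen after seeing the data, the removal of both day 7 libraries gave 0 slopes in all cells (0.00785% of genes) and 1 in neutrophil-like cells (1.37%), and the removal of the highest 5% of doublet scores moved no count past 1.5 times.

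For the median log2 ratios, naming cells singly gave 3.34 for Maf (mononuclear phagocytes over neutrophils), and 2.80 for Batf3 and 0.67 for Cebpe (dendritic-like over macrophage-like), the last with its sign turned. Resolution 1.6 gave 2.51 for Batf3. Thinning every cell gave -1.47 for Cebpa, 1.57 for Irf4 and 1.28 for Batf3, and turned Cebpe over neutrophils to 0.23. Leaving out one library moved no median ratio by over 1 SD. The causes were not tested. Depth limits Cebpe, with few UMIs in any class, and Batf3 in neutrophil-like cells.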

Other observations

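Over 55 sums of UMIs per class and library, which share libraries, depth and cell mixtures, the genes whose levels followed a member most closely were found by Pearson's r of log2(CPM + 20), as a description. Spi1 went with Sirpa (r = 0.895), Ctsz and Skap2, Cebpb with Ets2 (0.908), Rab20 and Rab7, and Cebpa with Mospd2 (0.879), Milr1 and Tnfrsf21. Irf8 went with Usp12 (0.891), Klri2 and Cxxc5, Irf4 with Ramp3 (0.888), Ass1 and Pxdc1, and Batf3 with Rogdi (0.847) and the dendritic markers Ccr7 and Cd209a (0.822 each). Maf went with Slc9a9 (0.826), Nr1d1 and Wwp1, and Zeb2 with Mapk6 (0.873), Cxcl2 and Igsf6. Cebpe reached 0.448 with Wtap, followed by Mmp8, a granule gene of neutrophils, and Clec5a.

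The unnamed shallow cells held Zeb2 at 731 to 1583 CPM, Spi1 at 355 to 529.5 CPM and Maf at 214 to 443 CPM.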
